A study of Mus musculus with 16 samples.

Results

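The lysosome, the acidic compartment in which cells break down proteins, sugars and lipids, was followed through 43 of its genes in mouse lungs given bleomycin and an inhibitor of the microRNA miR-199a-5p. The 43 genes were chosen by name as hydrolases, cathepsins, membrane proteins and proton pump subunits of the lysosome, with earlier results of these data known. All 43 were among the 20863 genes measured, and each was read from its probe with the highest mean over the 16 arrays (12 of the genes had several probes). They fell into 8 roles: 11 cathepsins, 2 other lysosomal proteases, 7 glycosidases, 7 lipid hydrolases, activators or transporters, 2 acid phosphatases, 6 membrane proteins or channels, 6 subunits of the vacuolar proton pump (V-ATPase), and progranulin with the transcription factor TFEB as the last 2.

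Total RNA of whole lungs from C57BL/6 mice aged 9 to 12 weeks was hybridised to 1-colour Agilent arrays. There were 4 groups. LNA-miR-199a-5p/bleomycin had 5 arrays, LNA-control/bleomycin had 5, LNA-miR-199a-5p/PBS had 3 and LNA-control/PBS had 3. LNA-miR-199a-5p is an oligonucleotide with locked nucleic acids that binds and blocks the microRNA, and LNA-control is its control oligonucleotide. Either one was instilled into the trachea of every animal at 5 mg/kg, 4 and 2 days before and again 4 days after the second agent, so no group was without an oligonucleotide. That second agent was bleomycin at 1 unit/kg, which damages DNA and is used to provoke lung fibrosis, or the saline PBS, also given into the trachea. The labels give neither the day of collection nor the sex, and do not say whether the replicates of a group are separate animals, so p-values measure the spread between these samples, part of which may be technical. The title of the series names the silencing of miR-199a-5p in bleomycin-induced lung fibrosis as its question.

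Many lysosomal enzymes are made as precursors, which for cathepsins are inactive. They are carried to the lysosome, where the V-ATPase pumps protons inward and the acid pH lets cathepsins and glycosidases work. Macrophages hold many lysosomes, and in the lung they take up surfactant, dead cells and matrix. TFEB and related factors bind a short DNA sequence, the CLEAR element, in the promoters of many lysosomal genes.

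The inhibited microRNA is shown because it is the target of the oligonucleotide that was tested. It is written 5′ to 3′ with its seed (bases 2 to 8), the part that pairs with target messages, in capitals. RefSeq (GRCm38.p6) places it at 2 loci with the same mature sequence, Mir199a-2 at chr1:162217844-162217866 on the + strand and Mir199a-1 at chr9:21496537-21496559 on the - strand.
mmu-miR-199a-5p: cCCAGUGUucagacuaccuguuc

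Promoters of the lysosomal genes were read for the E-box CACGTG, for the CLEAR core TCACGTGA and for the whole CLEAR element, which is that core with a G before it and a C after it. These motifs lie inside one another and read the same on both strands. The window ran from 250 bases before to 50 bases after each RefSeq start site (GRCm38.p6), and 36 of the 43 genes had one or more (a gene with several start sites counts as holding a motif if any of its windows does). CACGTG was present in 13 of these 36 genes (36.1%), against 9.37% of the 16321 measured genes with a window. TCACGTGA was present in 6 (16.7%), against 1.48%. The whole element was present in 1 (2.78%), against 0.502%. Those of 4 genes are printed, each as the 250 bases before the start site, with the longest match in capitals: Ctsd and Atp6v1a, which hold the core, Cln3, which holds the whole element in 1 of its 2 windows, the one shown, and Ctsk, which holds no match and had the largest bleomycin change with LNA-control. Ctsd is read from chr7:142387828-142388077 on the - strand, Atp6v1a from chr16:44139260-44139509 on the - strand, Cln3 from chr7:126583237-126583486 on the - strand and Ctsk from chr3:95498960-95499209 on the + strand.
Ctsd: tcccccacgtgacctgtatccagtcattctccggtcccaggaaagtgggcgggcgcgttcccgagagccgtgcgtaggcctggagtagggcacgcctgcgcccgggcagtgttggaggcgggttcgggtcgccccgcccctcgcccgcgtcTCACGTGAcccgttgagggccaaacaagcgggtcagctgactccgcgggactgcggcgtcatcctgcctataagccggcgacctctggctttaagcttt
Atp6v1a: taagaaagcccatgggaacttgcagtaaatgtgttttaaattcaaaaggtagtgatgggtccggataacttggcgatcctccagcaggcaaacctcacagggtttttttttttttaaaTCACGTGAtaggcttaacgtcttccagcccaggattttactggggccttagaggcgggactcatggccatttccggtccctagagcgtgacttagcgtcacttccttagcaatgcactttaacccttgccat
Cln3: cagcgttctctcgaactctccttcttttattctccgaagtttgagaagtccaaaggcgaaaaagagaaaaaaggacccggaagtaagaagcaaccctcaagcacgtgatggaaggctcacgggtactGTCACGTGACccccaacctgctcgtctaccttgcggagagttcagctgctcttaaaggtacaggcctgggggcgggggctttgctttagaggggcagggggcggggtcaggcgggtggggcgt
Ctsk: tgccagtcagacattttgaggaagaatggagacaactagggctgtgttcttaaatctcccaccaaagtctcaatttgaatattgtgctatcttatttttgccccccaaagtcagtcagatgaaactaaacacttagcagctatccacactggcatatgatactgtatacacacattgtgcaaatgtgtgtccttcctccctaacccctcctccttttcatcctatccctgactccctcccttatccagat

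The capitals begin 99 bases before the start site in Ctsd, 132 in Atp6v1a and 123 in Cln3. A match describes these letters and is no measurement of binding.

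The arrays were checked before the lysosomal genes were read. Values are log2 intensities, and surfactant protein C, the defining product of the type 2 cells of the lung, was between 18.11 and 18.32 on all arrays, at or near the top of the scale. Arrays of the same group correlated at 0.989 or higher. Replicates 1 and 4 of LNA-control/bleomycin had the thymocyte gene Rag1 at 10.03 and 10.88, against 5.43 to 6.10 elsewhere. Replicate 3 of LNA-miR-199a-5p/PBS had Krt13, a squamous keratin, at 5.59, against 11.38 to 15.73 on the other arrays. Ucp1, a brown fat gene, was at 5.56 on that array and 5.57 on replicate 3 of LNA-control/PBS, against 7.65 to 13.86 elsewhere. Counts without these arrays stand beside several of the results.

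With LNA-control, most of the lysosomal genes were higher after bleomycin. Of the 43, 30 were higher in bleomycin lungs than in PBS lungs, 0 were lower and 13 did not pass the test, with a median log2 change of 0.52. A gene is called when its two-sided limma p, adjusted by Benjamini-Hochberg over all 20863 genes, is under 0.05. By that rule 9.60% of all genes were higher and 7.90% lower, with a median change of 0.00. The 5 bleomycin arrays lay above all 3 PBS arrays for 33 of the 43, where 13.9% of all genes did. Most of the lysosomal probes are bright: 40 of the 43 lay above the median intensity of all genes, 8.47. Of these 40, 29 were higher, where 11.5% of all such genes were. The 3 members below that median were Cd68, Ctso and Tfeb, each with 1 probe.

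**Figure D1:**
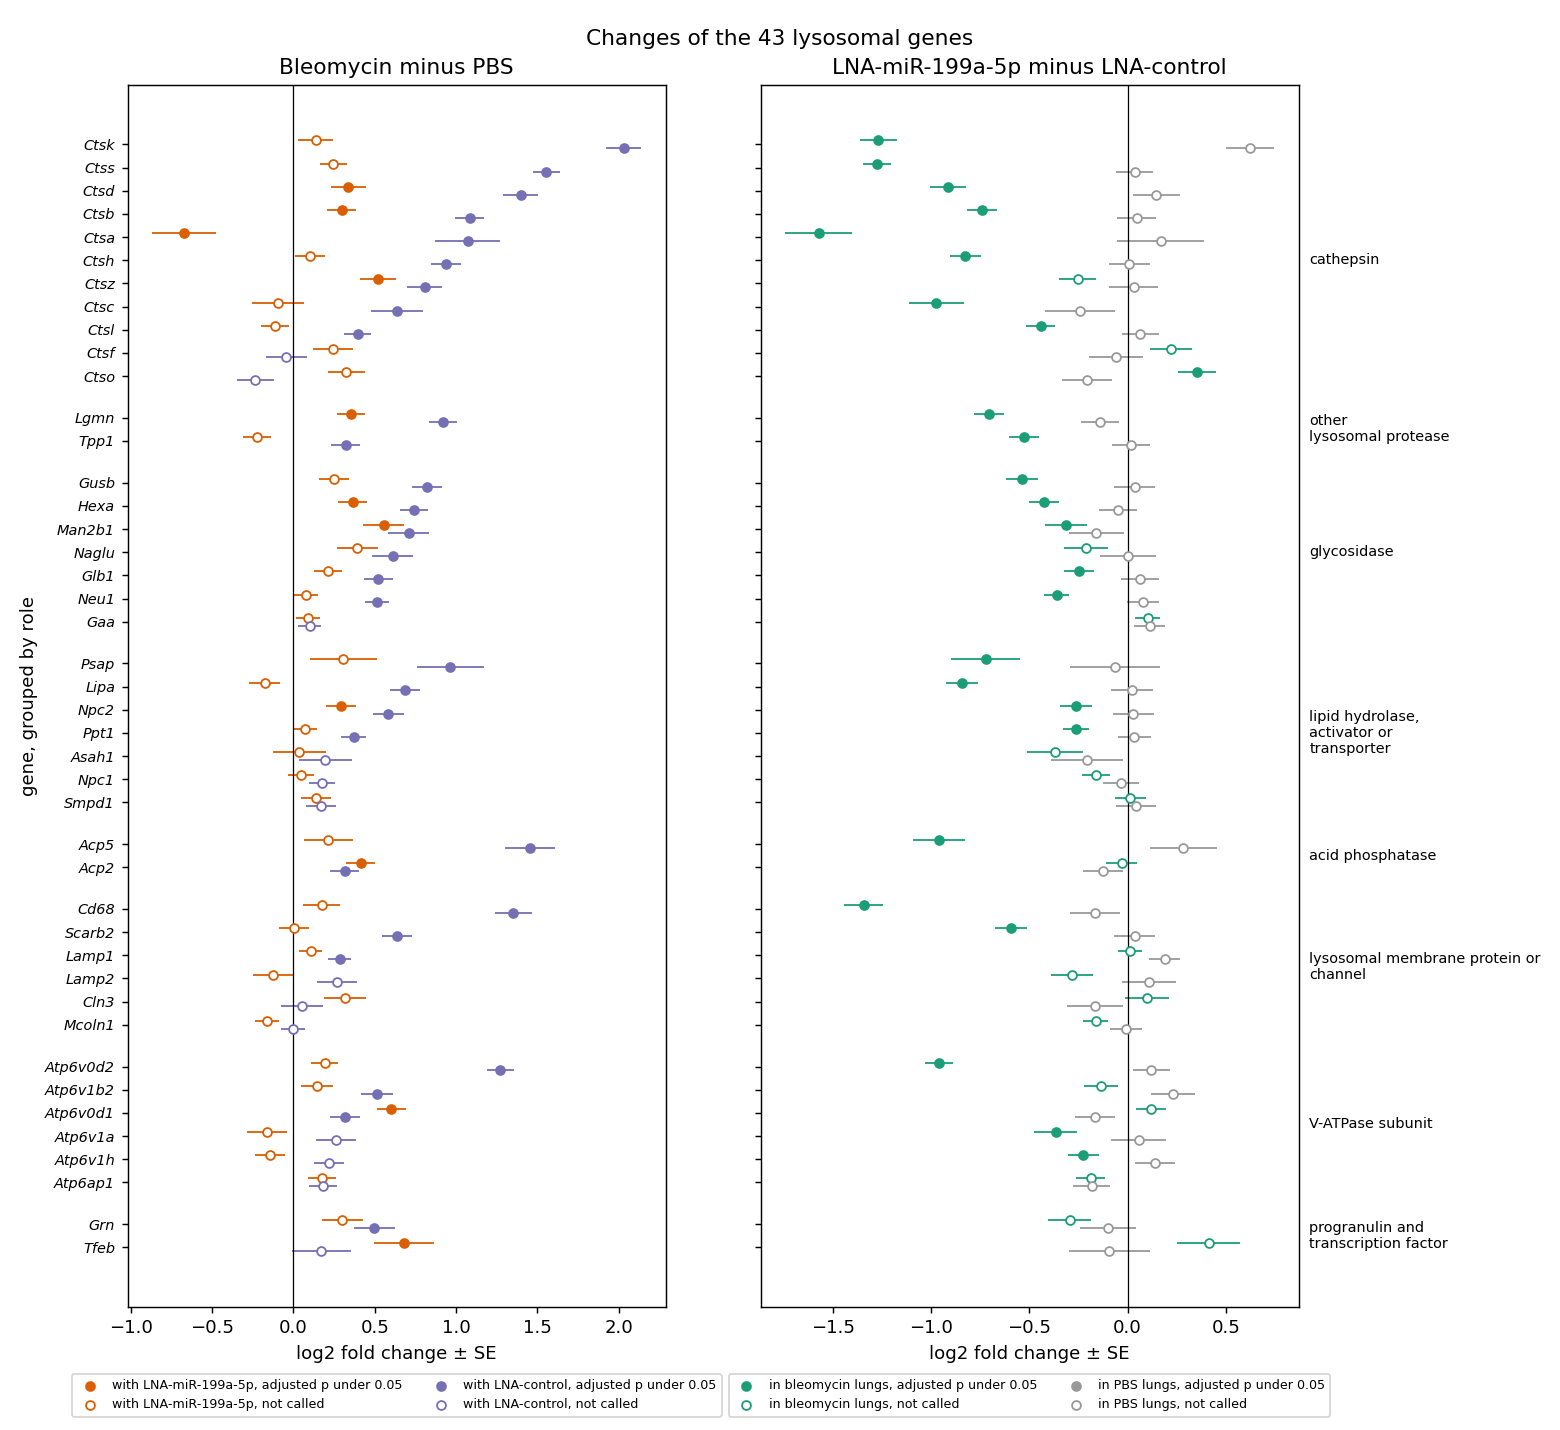
Log2 fold changes ± SE of the 43 genes by role (rows): left, bleomycin minus PBS with each oligonucleotide; right, LNA-miR-199a-5p minus LNA-control in bleomycin and in PBS lungs; filled points have an adjusted p under 0.05. With LNA-control 30 genes are filled to the right of 0 on the left panel, and in bleomycin lungs 25 are filled to the left of 0 on the right panel.

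In bleomycin lungs, LNA-miR-199a-5p went with lower levels of most of the same list. Compared with LNA-control/bleomycin, 25 of the 43 were lower, 1 was higher and 17 did not pass, with a median log2 change of -0.31. Over all genes 11.4% were lower and 13.4% higher, with a median of 0.01. All 5 arrays with the inhibitor lay below all 5 with the control for 22 of the 43, where 6.46% of all genes did. This comparison shares the LNA-control/bleomycin arrays with the one above, so the values are given side by side and their opposite signs are not a separate result. RNA integrity numbers averaged 9.0 in LNA-miR-199a-5p/bleomycin and 8.2 in LNA-control/bleomycin; with that number as a covariate 23 of the 43 were called rather than 26. Its part in the result was not otherwise tested.

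Bleomycin with LNA-miR-199a-5p gave a smaller count. Against PBS lungs with the same oligonucleotide, 10 of the 43 were higher, 1 was lower and 32 did not pass, with a median of 0.18; over all genes 7.31% were higher and 6.04% lower. The count of 11 was 1 with only the groups of the contrast in the fit, 4 in a fit blocked by replicate number, 6 with RNA integrity as a covariate, and 3 without replicate 3 of both PBS groups. Leaving out replicate 1, 2 or 3 of LNA-miR-199a-5p/PBS alone gave 3, 7 or 4, and leaving out replicate 5 of LNA-miR-199a-5p/bleomycin gave 6. This comparison shares the LNA-miR-199a-5p/bleomycin arrays with the inhibitor comparison. The difference between the 2 bleomycin effects was tested as an interaction over all 16 arrays. It was lower for 16 of the 43 and higher for 1, with a median of -0.37, where 3.94% of all genes were lower and 3.07% higher. Here a value below 0 means a smaller bleomycin effect with LNA-miR-199a-5p. Without replicates 1 and 4 of LNA-control/bleomycin the interaction count was 11 rather than 17, and without replicate 3 of both PBS groups it was 10.

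In PBS lungs 0 of the 43 differed between the oligonucleotides in limma, where 0.0336% of all genes were higher and 0.0144% lower. At an unadjusted limma p under 0.05 there were 2 of the 43, Ctsk and Lamp1, where 1526 of all 20863 genes passed. With array weights 1 of the 43 was called, Ctsk.

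**Figure D2:**
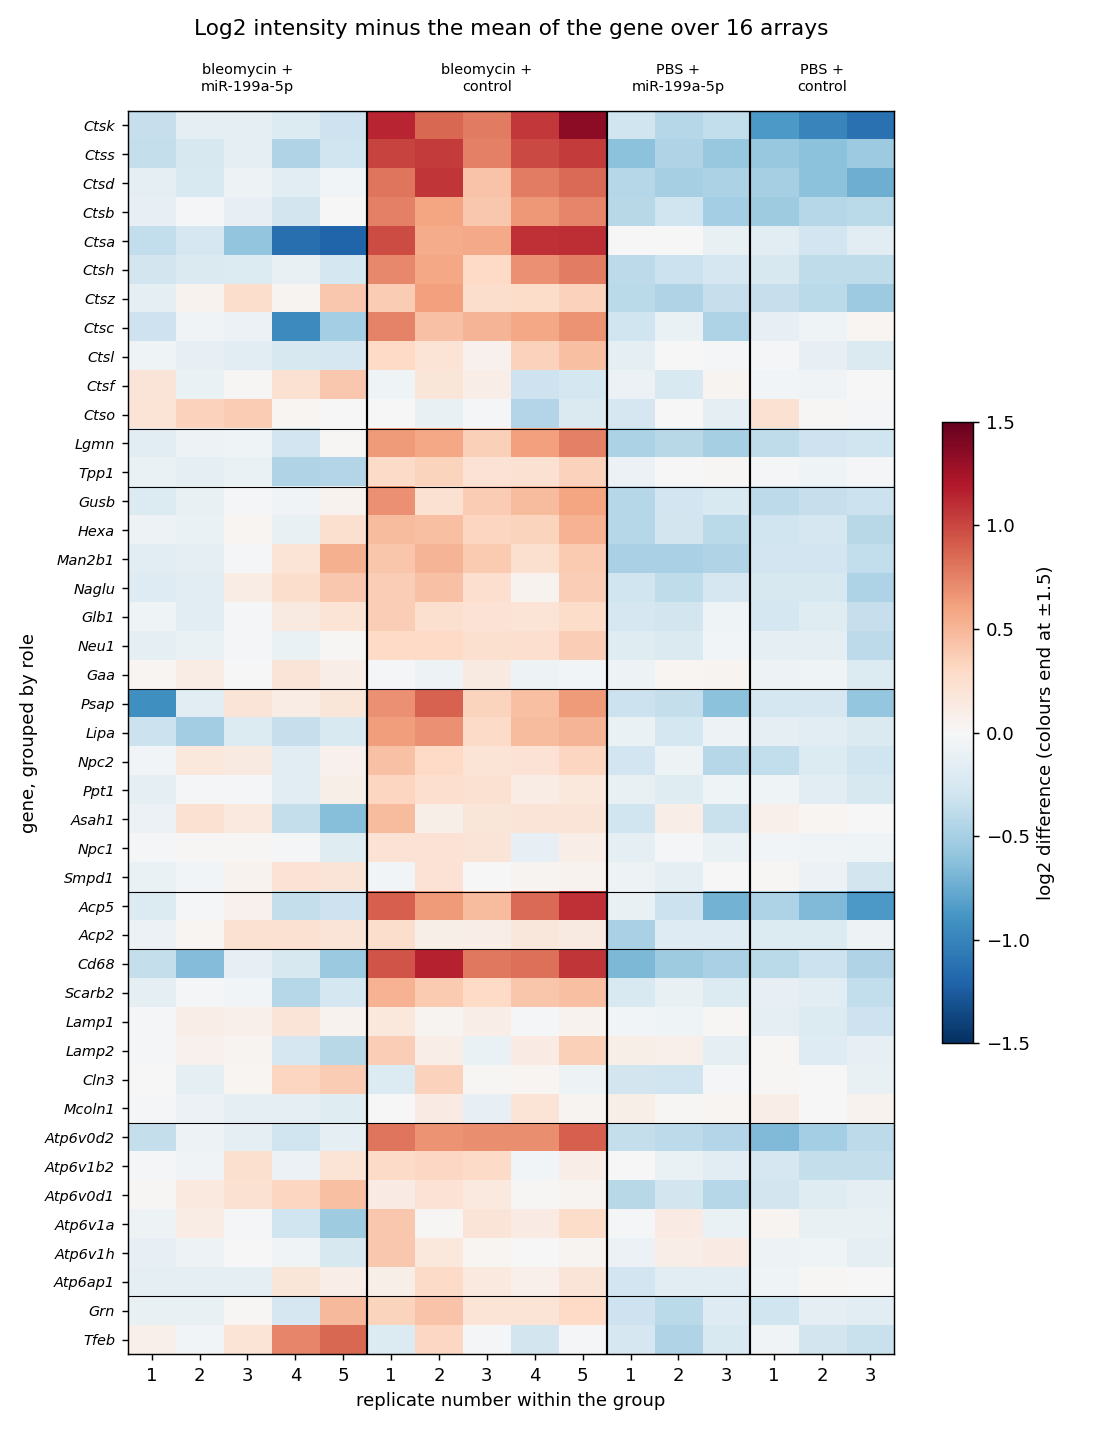
Log2 intensity of each of the 43 genes (rows, by role) minus its mean over the 16 arrays (columns, by group and replicate number), with colours ending at ±1.5. Red, above the mean, fills most of the cells of the 5 LNA-control/bleomycin arrays, and the cells of the other 3 groups are mostly near or below the mean.

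Most cathepsins were higher after bleomycin with LNA-control and lower with the inhibitor. With LNA-control 9 of the 11 rose after bleomycin, by 0.39 to 2.03 (median of the 11, 0.94), and with LNA-miR-199a-5p 3 rose and 1 fell. In bleomycin lungs 8 were lower with the inhibitor than with the control and 1 was higher (median -0.82). The interaction was lower for 7 of the 11 and higher for 1. The 3 that rose with LNA-miR-199a-5p became 1 with RNA integrity as a covariate, without replicate 3 of both PBS groups, or when any of replicates 3 and 5 of LNA-miR-199a-5p/bleomycin, 1 to 3 of LNA-miR-199a-5p/PBS or 2 of LNA-control/PBS was left out.

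Ctsk, a collagen-degrading cysteine protease best known from osteoclasts, had 12.07, 12.27, 12.28, 12.22 and 12.10 log2 intensity in LNA-miR-199a-5p/bleomycin and 13.57, 13.28, 13.20, 13.48 and 13.76 in LNA-control/bleomycin. In LNA-miR-199a-5p/PBS its values were 12.12, 11.99 and 12.05, and in LNA-control/PBS 11.55, 11.43 and 11.30. The LNA-control/bleomycin arrays were high and overlapped no other group, and the LNA-control/PBS arrays were the lowest, below the LNA-miR-199a-5p/PBS arrays without overlap. Between the PBS groups 10.2% of all genes were higher with LNA-miR-199a-5p without overlap. Bleomycin changed Ctsk by 2.03 ± 0.11 with LNA-control (adjusted p = 5.97e-09) and by 0.14 ± 0.11 with LNA-miR-199a-5p (adjusted p = 0.425) in limma. The inhibitor changed it by -1.27 ± 0.09 in bleomycin lungs (adjusted p = 2.37e-07) and by 0.62 ± 0.12 in PBS lungs (adjusted p = 0.101, limma). The interaction, which counts both differences, was -1.89 (limma adjusted p = 3.2e-06).

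Ctss, a cysteine protease that trims the invariant chain in antigen-presenting cells, had 14.47, 14.59, 14.68, 14.38 and 14.53 in LNA-miR-199a-5p/bleomycin and 15.84, 15.88, 15.59, 15.82 and 15.88 in LNA-control/bleomycin. The PBS values were 14.22, 14.38 and 14.26 with LNA-miR-199a-5p and 14.26, 14.21 and 14.28 with LNA-control. Every LNA-control/bleomycin array stood above all arrays of the other groups, and replicate 3 was the lowest of them. Ctss changed by 1.55 ± 0.08 after bleomycin with LNA-control (limma adjusted p = 5.97e-09) and by -1.27 ± 0.07 with the inhibitor in bleomycin lungs (adjusted p = 1.32e-08). With LNA-miR-199a-5p its bleomycin change was 0.24 ± 0.08 (limma adjusted p = 0.0612), with no overlap of the arrays. In that comparison 10.5% of all genes were higher without overlap.

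Ctsd, the main aspartic protease of the lysosome, had 15.03, 14.94, 15.10, 15.01 and 15.13 in LNA-miR-199a-5p/bleomycin and 15.98, 16.24, 15.60, 15.94 and 16.02 in LNA-control/bleomycin. In PBS lungs it had 14.74, 14.67 and 14.70 with LNA-miR-199a-5p and 14.67, 14.56 and 14.44 with LNA-control. Both bleomycin groups lay above their own PBS group without overlap. The change was 0.34 ± 0.11 with LNA-miR-199a-5p (limma adjusted p = 0.0477) and 1.40 ± 0.11 with LNA-control (adjusted p = 3.96e-07). Ctsb, a cysteine protease present in most cells, had 14.49, 14.60, 14.50, 14.34 and 14.61 in LNA-miR-199a-5p/bleomycin and 15.38, 15.22, 15.03, 15.27 and 15.35 in LNA-control/bleomycin. Its PBS values were 14.21, 14.32 and 14.11 with LNA-miR-199a-5p and 14.09, 14.19 and 14.21 with LNA-control. As for Ctsd, the bleomycin arrays with the inhibitor lay between the PBS arrays and the bleomycin arrays with the control.

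Ctsa, a carboxypeptidase that also stabilises the galactosidase and sialidase of the lysosome, had 13.52, 13.64, 13.30, 12.76 and 12.69 in LNA-miR-199a-5p/bleomycin and 14.87, 14.45, 14.46, 14.99 and 15.00 in LNA-control/bleomycin. PBS lungs gave 13.89, 13.89 and 13.78 with LNA-miR-199a-5p and 13.72, 13.61 and 13.72 with LNA-control. On the probes used, only Ctsa of the 43 was lowered by bleomycin with the inhibitor, by -0.67 ± 0.20 (limma adjusted p = 0.0357). Its call was lost in 9 of 28 alternatives (limma adjusted p up to 0.140). With LNA-control it rose by 1.07 ± 0.20, so its bleomycin effects had opposite signs. Replicates 4 and 5 of LNA-miR-199a-5p/bleomycin were the lowest of all 16. A second, dim probe of Ctsa (mean 7.48) gave -0.05 and 0.26 for the same 2 effects and -0.26 for the inhibitor in bleomycin lungs, against -1.57 on the brighter probe.

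Ctsh, an aminopeptidase that also helps process surfactant proteins, rose by 0.94 ± 0.09 after bleomycin with LNA-control and was lower by -0.82 ± 0.08 with the inhibitor in bleomycin lungs. Ctsc, which activates serine proteases of leukocyte granules, rose by 0.64 ± 0.16 (not called without replicates 1 and 4 of LNA-control/bleomycin) and was lower by -0.97 ± 0.14. Ctsl, a broad cysteine protease, rose by 0.39 ± 0.09 and was lower by -0.44 ± 0.07. Ctsz, a carboxypeptidase, was called after bleomycin with both oligonucleotides, by 0.52 ± 0.11 with LNA-miR-199a-5p and 0.81 ± 0.11 with LNA-control. Its inhibitor difference in bleomycin lungs was -0.25 ± 0.10 (limma adjusted p = 0.0624).

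Ctso and Ctsf, 2 less studied cysteine cathepsins, stood apart from the other 9. After bleomycin with LNA-control they changed by -0.23 ± 0.11 and -0.04 ± 0.12, neither called. Ctso had 8.51, 8.65, 8.69, 8.34 and 8.32 in LNA-miR-199a-5p/bleomycin and 8.30, 8.19, 8.29, 7.87 and 8.09 in LNA-control/bleomycin, and was the only one of the 43 called higher with the inhibitor in bleomycin lungs (0.35 ± 0.10, limma adjusted p = 0.0152). Those groups did not overlap, although the lowest inhibitor value, 8.32, and the highest control value, 8.30, nearly met. The call was lost with RNA integrity as a covariate and without replicates 1 and 4 of LNA-control/bleomycin. Its interaction of 0.56 (limma adjusted p = 0.0447) was lost in 16 of 26 alternatives (adjusted p up to 0.119).

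The 2 other proteases were also higher after bleomycin with LNA-control. Lgmn, the asparaginyl endopeptidase that cuts several cathepsins into their mature chains, had 13.90, 13.97, 13.99, 13.76 and 14.07 in LNA-miR-199a-5p/bleomycin and 14.70, 14.64, 14.41, 14.67 and 14.81 in LNA-control/bleomycin. PBS lungs had 13.57, 13.64 and 13.55 with LNA-miR-199a-5p and 13.67, 13.75 and 13.76 with LNA-control. It rose by 0.35 ± 0.09 with LNA-miR-199a-5p and by 0.92 ± 0.09 with LNA-control, and was lower by -0.70 ± 0.08 with the inhibitor in bleomycin lungs. Tpp1, a tripeptidyl peptidase, rose by 0.32 ± 0.09 after bleomycin with LNA-control, a call lost in 4 of 28 alternatives, among them those without replicate 2 or 3 of LNA-control/PBS. Its inhibitor difference in bleomycin lungs was -0.53 ± 0.08 (limma adjusted p = 0.000172), and no array of one group reached the other.

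**Figure D3:**
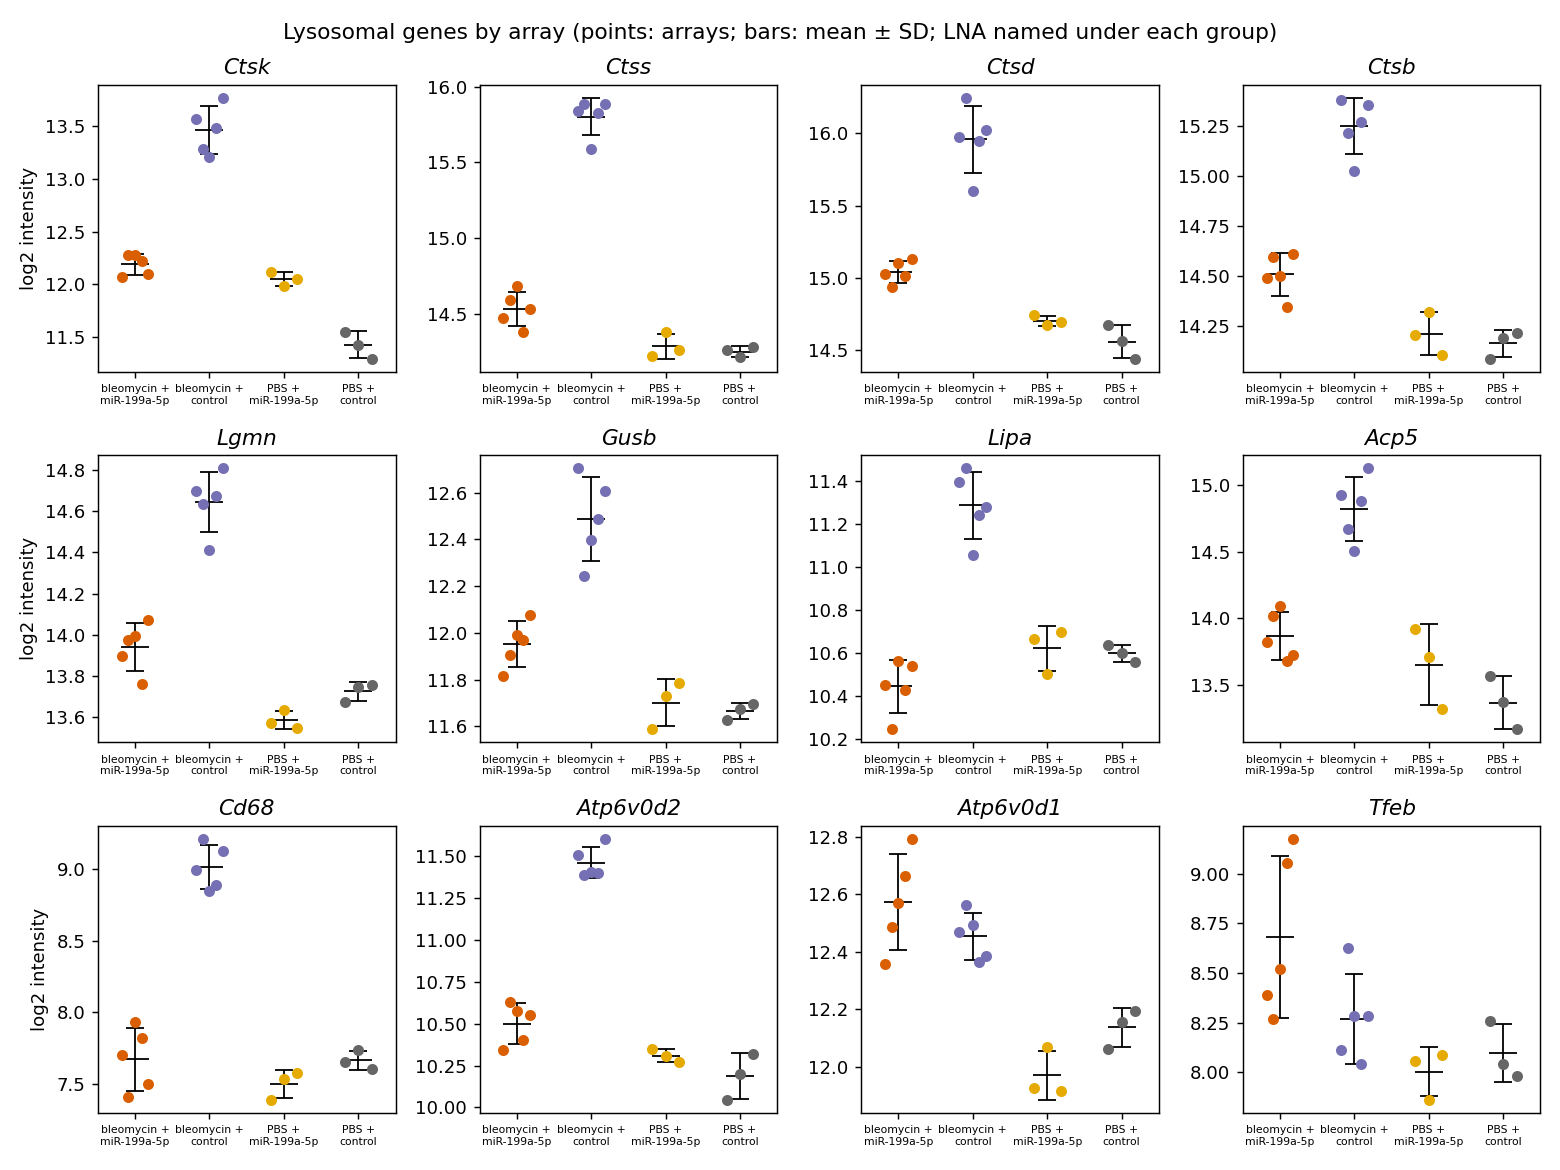
Log2 intensity (y axes, not from 0) of 12 lysosomal genes on each of the 16 arrays, by group, with points for arrays and bars for mean ± SD (n = 5 for bleomycin groups, 3 for PBS groups). For Ctsk, Ctss, Ctsd, Ctsb, Lgmn, Gusb, Lipa, Acp5, Cd68 and Atp6v0d2 the LNA-control/bleomycin arrays overlap no other group, while Atp6v0d1 and Tfeb have their highest means in LNA-miR-199a-5p/bleomycin.

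The glycosidases remove sugars from glycoproteins, glycolipids and glycosaminoglycans. With LNA-control 6 of the 7 rose after bleomycin, by 0.52 to 0.82 (median of the 7, 0.61), and with LNA-miR-199a-5p 2 rose, or 0 without replicate 3 of both PBS groups. In bleomycin lungs 5 were lower with the inhibitor (median -0.31). That count was 3 without replicates 1 and 4 of LNA-control/bleomycin together, and 3 when replicate 1 or 5 of that group or replicate 1, 2 or 3 of LNA-miR-199a-5p/bleomycin was left out alone.

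Gusb, which cleaves glucuronic acid from glycosaminoglycans, had 11.81, 11.90, 11.99, 11.97 and 12.08 in LNA-miR-199a-5p/bleomycin and 12.70, 12.24, 12.40, 12.49 and 12.60 in LNA-control/bleomycin. In PBS lungs the values were 11.59, 11.73 and 11.79 with LNA-miR-199a-5p and 11.63, 11.68 and 11.69 with LNA-control. All 5 LNA-control/bleomycin arrays were above the rest. Its change was 0.82 ± 0.09 after bleomycin with LNA-control (limma adjusted p = 2.17e-05) and -0.54 ± 0.08 with the inhibitor in bleomycin lungs (adjusted p = 0.000266). The array holds 10 probes for Gusb, and they gave 0.77 to 0.83 for the bleomycin change with LNA-control.

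Hexa, a subunit of the hexosaminidase that degrades gangliosides, had 12.38, 12.35, 12.48, 12.34 and 12.69 in LNA-miR-199a-5p/bleomycin and 12.93, 12.90, 12.77, 12.79 and 12.98 in LNA-control/bleomycin. Its PBS values were 12.02, 12.18 and 12.05 with LNA-miR-199a-5p and 12.15, 12.21 and 12.04 with LNA-control. Both bleomycin groups lay above both PBS groups, and Hexa rose by 0.36 ± 0.09 with LNA-miR-199a-5p and 0.74 ± 0.09 with LNA-control. Neu1, the lysosomal sialidase, had 12.21, 12.25, 12.33, 12.26 and 12.37 in LNA-miR-199a-5p/bleomycin and 12.65, 12.65, 12.60, 12.60 and 12.73 in LNA-control/bleomycin. With PBS it had 12.17, 12.14 and 12.31 in lungs given LNA-miR-199a-5p and 12.22, 12.21 and 11.96 in lungs given LNA-control. The LNA-miR-199a-5p/bleomycin arrays overlapped their PBS group, with a change of 0.08 ± 0.07 (limma adjusted p = 0.530), where the change with LNA-control was 0.52 ± 0.07 (adjusted p = 0.00016).

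Glb1, the acid beta-galactosidase, rose by 0.52 ± 0.09 with LNA-control, and its inhibitor difference of -0.25 ± 0.08 was lost in 7 of 28 alternatives. Man2b1, an alpha-mannosidase, rose by 0.56 ± 0.12 with LNA-miR-199a-5p and 0.71 ± 0.12 with LNA-control. Its inhibitor difference of -0.31 ± 0.11 rested on overlapping arrays, with 12.66 to 13.36 in LNA-miR-199a-5p/bleomycin and 13.07 to 13.34 in LNA-control/bleomycin, and was lost in 16 of 28 alternatives. Naglu, which acts on heparan sulfate, rose by 0.61 ± 0.13 with LNA-control, and its inhibitor difference was -0.21 ± 0.11 (limma adjusted p = 0.177). Gaa, which degrades glycogen, did not follow the others: its bleomycin changes were 0.09 ± 0.07 with LNA-miR-199a-5p and 0.10 ± 0.07 with LNA-control, neither called.

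Of the 7 lipid genes, 4 rose after bleomycin with LNA-control and the same 4 were lower with the inhibitor in bleomycin lungs. Lipa, the acid lipase that frees cholesterol from its esters, had 10.45, 10.25, 10.56, 10.43 and 10.54 in LNA-miR-199a-5p/bleomycin and 11.40, 11.46, 11.06, 11.24 and 11.28 in LNA-control/bleomycin. PBS lungs had 10.67, 10.50 and 10.70 with LNA-miR-199a-5p and 10.64, 10.60 and 10.56 with LNA-control. The LNA-miR-199a-5p/bleomycin arrays reached below both PBS groups, and the LNA-control/bleomycin arrays lay above all. Its change was 0.69 ± 0.09 after bleomycin with LNA-control (limma adjusted p = 9.66e-05) and -0.84 ± 0.08 for the inhibitor in bleomycin lungs (adjusted p = 4.88e-06).

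Psap, the precursor of the saposins that present lipids to their hydrolases, varied more between arrays. It had 13.18, 13.92, 14.28, 14.21 and 14.28 in LNA-miR-199a-5p/bleomycin and 14.78, 14.99, 14.43, 14.55 and 14.74 in LNA-control/bleomycin, with replicate 1 of the inhibitor group far below the others. Its PBS values were 13.77, 13.74 and 13.48 with LNA-miR-199a-5p and 13.83, 13.85 and 13.52 with LNA-control. Psap rose by 0.96 ± 0.20 with LNA-control and was lower by -0.72 ± 0.18 with the inhibitor in bleomycin lungs.

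Npc2, which hands cholesterol to the membrane protein NPC1, had 15.15, 15.35, 15.33, 15.03 and 15.26 in LNA-miR-199a-5p/bleomycin and 15.63, 15.49, 15.40, 15.40 and 15.51 in LNA-control/bleomycin. With PBS its values were 14.91, 15.12 and 14.76 for LNA-miR-199a-5p and 14.82, 14.98 and 14.89 for LNA-control. Npc2 rose by 0.29 ± 0.09 with LNA-miR-199a-5p and 0.58 ± 0.09 with LNA-control; its inhibitor difference of -0.26 ± 0.08 was lost in 6 of 28 alternatives. Ppt1, which removes fatty acids from proteins, rose by 0.37 ± 0.07 with LNA-control, against 0.07 ± 0.07 with LNA-miR-199a-5p, which was not called. Asah1 (acid ceramidase), Npc1 and Smpd1 (acid sphingomyelinase) were called in none of the 5 comparisons, and their bleomycin changes with LNA-control were 0.20 ± 0.16, 0.18 ± 0.08 and 0.17 ± 0.09.

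The 2 acid phosphatases differed in size. Acp5, the tartrate-resistant phosphatase of osteoclasts and macrophages, had 13.82, 14.01, 14.09, 13.68 and 13.72 in LNA-miR-199a-5p/bleomycin and 14.93, 14.67, 14.50, 14.88 and 15.13 in LNA-control/bleomycin. PBS lungs gave 13.92, 13.71 and 13.32 with LNA-miR-199a-5p and 13.56, 13.37 and 13.17 with LNA-control. Again LNA-control/bleomycin stood above all others. Acp5 rose by 1.46 ± 0.15 after bleomycin with LNA-control (limma adjusted p = 8.31e-06) and was lower by -0.96 ± 0.13 with the inhibitor in bleomycin lungs (adjusted p = 0.000122). Acp2, the widely expressed lysosomal phosphatase, rose by 0.41 ± 0.09 with LNA-miR-199a-5p and 0.32 ± 0.09 with LNA-control, a call lost with LNA-control in 6 of 28 alternatives. Its second probe gave 0.16 and 0.67 for these effects, so the order of the oligonucleotides depended on the probe.

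Among membrane proteins and channels, 3 of 6 rose after bleomycin with LNA-control and 2 were lower with the inhibitor. Cd68, a heavily glycosylated membrane protein of macrophage lysosomes, had 7.70, 7.40, 7.93, 7.82 and 7.50 in LNA-miR-199a-5p/bleomycin and 9.00, 9.21, 8.85, 8.89 and 9.13 in LNA-control/bleomycin. PBS arrays were at 7.39, 7.53 and 7.58 with LNA-miR-199a-5p and 7.65, 7.73 and 7.60 with LNA-control. The LNA-control/bleomycin arrays were above all others. LNA-miR-199a-5p/bleomycin overlapped both PBS groups, while LNA-miR-199a-5p/PBS lay below LNA-control/PBS without overlap, a difference that was not called. Between the PBS groups 7.89% of all genes were lower with LNA-miR-199a-5p without overlap. Cd68 changed by 1.35 ± 0.11 after bleomycin with LNA-control (limma adjusted p = 9.7e-07) and by -1.34 ± 0.10 with the inhibitor in bleomycin lungs (adjusted p = 2.23e-07).

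Scarb2, a receptor that carries enzyme to the lysosome, had 10.97, 11.09, 11.06, 10.67 and 10.84 in LNA-miR-199a-5p/bleomycin and 11.63, 11.50, 11.40, 11.52 and 11.56 in LNA-control/bleomycin. Its PBS arrays had 10.88, 10.99 and 10.90 with LNA-miR-199a-5p and 10.98, 10.94 and 10.74 with LNA-control. Scarb2 rose by 0.64 ± 0.09 with LNA-control, against 0.00 ± 0.09 with LNA-miR-199a-5p (limma adjusted p = 0.980), and was lower by -0.59 ± 0.08 with the inhibitor in bleomycin lungs. Lamp1, a main coat protein of the lysosomal membrane, rose by 0.28 ± 0.07 with LNA-control, a call lost without replicate 3 of LNA-control/PBS. The related Lamp2 (0.27 ± 0.12), the Batten disease protein Cln3 (0.05 ± 0.13) and the calcium channel Mcoln1 (-0.0046 ± 0.07) were not called in that comparison or any other.

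The V-ATPase subunits were divided between called and not called. With LNA-control 3 of the 6 rose after bleomycin (median of the 6, 0.29), and with LNA-miR-199a-5p 1 rose. In bleomycin lungs 3 were lower with the inhibitor (median -0.21), a count of 1 with RNA integrity as a covariate, without replicates 1 and 4 of LNA-control/bleomycin together, or without replicate 1 or 5 of that group alone.

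Atp6v0d2, the d2 isoform of a membrane-sector subunit found in osteoclasts and macrophages, had 10.34, 10.63, 10.57, 10.40 and 10.55 in LNA-miR-199a-5p/bleomycin and 11.51, 11.38, 11.41, 11.40 and 11.60 in LNA-control/bleomycin. It had 10.35, 10.31 and 10.27 in LNA-miR-199a-5p/PBS and 10.05, 10.20 and 10.32 in LNA-control/PBS. The LNA-control/bleomycin arrays lay above all others. Its change was 1.27 ± 0.08 after bleomycin with LNA-control (limma adjusted p = 7.17e-08) and -0.96 ± 0.07 with the inhibitor in bleomycin lungs (adjusted p = 2.98e-07).

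Atp6v0d1, the widely expressed d1 isoform of the same subunit, had 12.36, 12.49, 12.57, 12.66 and 12.79 in LNA-miR-199a-5p/bleomycin and 12.47, 12.56, 12.49, 12.36 and 12.39 in LNA-control/bleomycin. PBS lungs had 11.93, 12.07 and 11.92 with LNA-miR-199a-5p and 12.06, 12.16 and 12.19 with LNA-control. Here both bleomycin groups were above both PBS groups and overlapped each other. It rose by 0.60 ± 0.09 with LNA-miR-199a-5p (limma adjusted p = 0.00296) and by 0.32 ± 0.09 with LNA-control (adjusted p = 0.0204), where the call was lost in 4 of 28 alternatives. Its interaction of 0.29 ± 0.13 was not called (limma adjusted p = 0.190). It was the only one of the 43 whose bleomycin call with LNA-miR-199a-5p was kept under all 28 alternatives.

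Atp6v1b2, the widely expressed isoform of a subunit of the ATP-splitting sector, had 8.48, 8.45, 8.75, 8.42 and 8.72 in LNA-miR-199a-5p/bleomycin and 8.80, 8.82, 8.79, 8.47 and 8.61 in LNA-control/bleomycin. PBS lungs were at 8.51, 8.40 and 8.34 with LNA-miR-199a-5p and 8.26, 8.15 and 8.15 with LNA-control. It rose by 0.51 ± 0.10 with LNA-control, and its inhibitor difference in bleomycin lungs was -0.13 ± 0.09 (limma adjusted p = 0.281). Atp6v1a, the catalytic subunit, had an inhibitor difference of -0.37 ± 0.11 in bleomycin lungs, lost in 5 of 28 alternatives, and Atp6v1h, a regulatory subunit, one of -0.23 ± 0.08, lost in 17 of 28. Their bleomycin changes with LNA-control, 0.26 ± 0.12 and 0.22 ± 0.09, were not called, nor was that of the accessory subunit Atp6ap1 (0.18 ± 0.09). A second probe of Atp6v1a (mean 10.58) gave -0.74 for the inhibitor in bleomycin lungs. For bleomycin with LNA-miR-199a-5p it gave -0.72, against -0.16 on the brighter probe.

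Progranulin and TFEB were each called in 1 bleomycin effect, Grn with LNA-control and Tfeb with LNA-miR-199a-5p. Grn, the precursor of granulins that work inside the lysosome, had 12.67, 12.67, 12.80, 12.53 and 13.28 in LNA-miR-199a-5p/bleomycin and 13.13, 13.22, 12.99, 13.00 and 13.09 in LNA-control/bleomycin. Its PBS values were 12.48, 12.39 and 12.60 with LNA-miR-199a-5p and 12.49, 12.65 and 12.63 with LNA-control. It changed by 0.30 ± 0.13 with LNA-miR-199a-5p (limma adjusted p = 0.120) and rose by 0.50 ± 0.13 with LNA-control, a call lost without replicate 1 of LNA-control/PBS. Its inhibitor difference in bleomycin lungs was -0.29 ± 0.11 (adjusted p = 0.0618, limma) and its interaction was not called.

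Tfeb had 8.39, 8.27, 8.52, 9.05 and 9.17 in LNA-miR-199a-5p/bleomycin and 8.11, 8.63, 8.28, 8.04 and 8.28 in LNA-control/bleomycin. In PBS lungs it had 8.06, 7.86 and 8.09 with LNA-miR-199a-5p and 8.26, 8.04 and 7.98 with LNA-control. Replicates 4 and 5 of LNA-miR-199a-5p/bleomycin were the highest of all arrays. Tfeb rose by 0.68 ± 0.18 after bleomycin with LNA-miR-199a-5p (limma adjusted p = 0.0257, lost in 9 of 26 alternatives), while its change with LNA-control was 0.17 ± 0.18 (adjusted p = 0.600). The difference between these effects, 0.51 ± 0.26, was not called (limma adjusted p = 0.263).

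Promoter matches and calls were set side by side as a description. Of the members with a promoter window, 8 of 26 that rose after bleomycin with LNA-control held CACGTG (30.8%), as did 5 of 10 that were not called (50%). For TCACGTGA the shares were 3 of 26 (11.5%) and 3 of 10 (30.0%). TCACGTGA was held by Ctsa, Ctsd and Atp6v0d1, which rose, and by Atp6v1a, Cln3 and Mcoln1, which were not called. With the inhibitor in bleomycin lungs Ctsa, Ctsd and Atp6v1a were lower. Cln3, the gene with the whole element, and Mcoln1 were called in no comparison.

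Other lysosomal genes, outside the 43, were read from 7 lists with 124 measured genes. Their shares stand against 9.60% of all genes higher and 7.90% lower after bleomycin with LNA-control, and 13.4% higher and 11.4% lower with the inhibitor in bleomycin lungs. Some of the counts below lie near these shares. Of 26 other hydrolases and activators, 9 rose and 1 fell after bleomycin with LNA-control, and 7 were lower and 2 higher with the inhibitor in bleomycin lungs. The 9 that rose were 7 without replicates 1 and 4 of LNA-control/bleomycin, and 7 without replicate 3 of both PBS groups. The 7 lower were 5 without replicates 1 and 4 of LNA-control/bleomycin, and 5 with RNA integrity as a covariate. The 2 higher were 0 without replicates 1 and 4 of LNA-control/bleomycin, 0 with RNA integrity as a covariate and 1 without replicate 3 of both PBS groups. These alternatives were added for the lists after the data were seen. Galc, which degrades galactolipids, rose by 0.56 ± 0.08 and was lower by -0.62 ± 0.07, while Galns changed by 0.19 ± 0.16 after bleomycin and was lower by -0.69 ± 0.14.

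Of 17 other V-ATPase subunits, 5 rose and 1 fell after bleomycin with LNA-control, and 2 were lower and 2 higher with the inhibitor; the 5 were 3 without replicates 1 and 4 of LNA-control/bleomycin, and 3 without replicate 3 of both PBS groups. The 2 lower and 2 higher with the inhibitor (11.8% each) lie near the shares of all genes, 11.4% and 13.4%. Without replicates 1 and 4 of LNA-control/bleomycin 1 was lower and 1 higher with the inhibitor, and with RNA integrity as a covariate 2 were lower and 1 higher. Tcirg1, the membrane-sector isoform of osteoclasts, rose by 0.59 ± 0.13, and its inhibitor difference was -0.22 ± 0.11, not called. Atp6v1c2, an isoform of lung and kidney epithelium, went the other way: it had 12.31, 12.32, 12.19, 12.73 and 12.82 in LNA-miR-199a-5p/bleomycin and 11.13, 11.76, 12.10, 11.03 and 11.05 in LNA-control/bleomycin. Its PBS values were 12.24, 12.15 and 12.36 with LNA-miR-199a-5p and 12.18, 12.30 and 12.30 with LNA-control, so the LNA-control/bleomycin arrays were the low ones. It fell by 0.85 after bleomycin with LNA-control (SE 0.21, limma adjusted p = 0.0105), a call lost without replicates 1 and 4 of LNA-control/bleomycin and without replicate 3 of both PBS groups, and was higher by 1.06 ± 0.18 with the inhibitor.

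Of 21 other membrane proteins, 6 rose after bleomycin with LNA-control and 6 were lower and 1 higher with the inhibitor. The 6 that rose were 4 without replicates 1 and 4 of LNA-control/bleomycin, and 4 without replicate 3 of both PBS groups. Gpnmb, a glycoprotein of macrophages and melanosomes, had 10.01, 9.87, 9.90, 10.30 and 10.10 in LNA-miR-199a-5p/bleomycin and 11.89, 11.86, 11.93, 11.58 and 11.81 in LNA-control/bleomycin. With PBS it had 9.75, 9.56 and 9.40 in LNA-miR-199a-5p lungs and 8.95, 8.88 and 8.81 in LNA-control lungs. No 2 groups overlapped, with LNA-control/PBS lowest and LNA-control/bleomycin highest. It rose by 0.46 ± 0.11 with LNA-miR-199a-5p and 2.93 ± 0.11 with LNA-control, and its difference in PBS lungs was 0.69 ± 0.12 (limma adjusted p = 0.0578).

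Of 6 cathepsin inhibitors, 2 rose after bleomycin with LNA-control, and 2 were lower and 1 higher with the inhibitor in bleomycin lungs (2 higher without replicate 3 of both PBS groups). Cstb, the cytosolic stefin B, rose by 0.79 ± 0.07 and was lower by -0.57 ± 0.06. Cst7, cystatin F of cytotoxic cells, was higher by 0.61 ± 0.11 with the inhibitor. Cystatin C, Cst3, changed by 0.24 ± 0.09 and -0.02 ± 0.08, neither called.

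Of 19 regulators of lysosomal genes and nutrient sensing, 4 rose after bleomycin with LNA-control and 4 were lower and 1 higher with the inhibitor. The 4 that rose were 1 without replicates 1 and 4 of LNA-control/bleomycin, 1 without replicate 3 of both PBS groups and 2 with RNA integrity as a covariate, and the 1 higher with the inhibitor was 2 without replicate 3 of both PBS groups. Tfec, a macrophage relative of TFEB, had 7.68, 7.87, 7.74, 7.25 and 7.38 in LNA-miR-199a-5p/bleomycin and 8.48, 8.30, 8.39, 8.60 and 8.66 in LNA-control/bleomycin. PBS lungs had 7.11, 7.49 and 7.49 with LNA-miR-199a-5p and 7.49, 7.37 and 7.01 with LNA-control. The LNA-control/bleomycin arrays lay above all others; Tfec rose by 1.19 ± 0.15 (limma adjusted p = 4.37e-05) and was lower by -0.90 ± 0.13 with the inhibitor (adjusted p = 0.000158). Mitf, of the same family, rose by 0.26 ± 0.09 with an adjusted p of 0.0499 in limma and was lower by -0.41 ± 0.08.

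Of 15 genes that sort enzymes to lysosomes, 3 rose after bleomycin with LNA-control, among them Gnptab (0.44 ± 0.10), which starts the mannose 6-phosphate tag, and 2 were lower and 1 higher with the inhibitor. Without replicates 1 and 4 of LNA-control/bleomycin these counts were 1, 0 and 0, and with RNA integrity as a covariate 1 was lower and 0 higher with the inhibitor. The 2 lower with the inhibitor (13.3%) lie near the 11.4% of all genes. Of 20 autophagy genes 0 rose and 1 fell after bleomycin with LNA-control in limma, Gabarapl1 (-0.46 ± 0.08), and 3 were higher with the inhibitor, among them Map1lc3b (0.48 ± 0.10). The 3 higher (15%) lie near the 13.4% of all genes. None of the 20 autophagy genes was lower with the inhibitor, and 1 was without replicate 3 of both PBS groups.

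**Figure D4:**
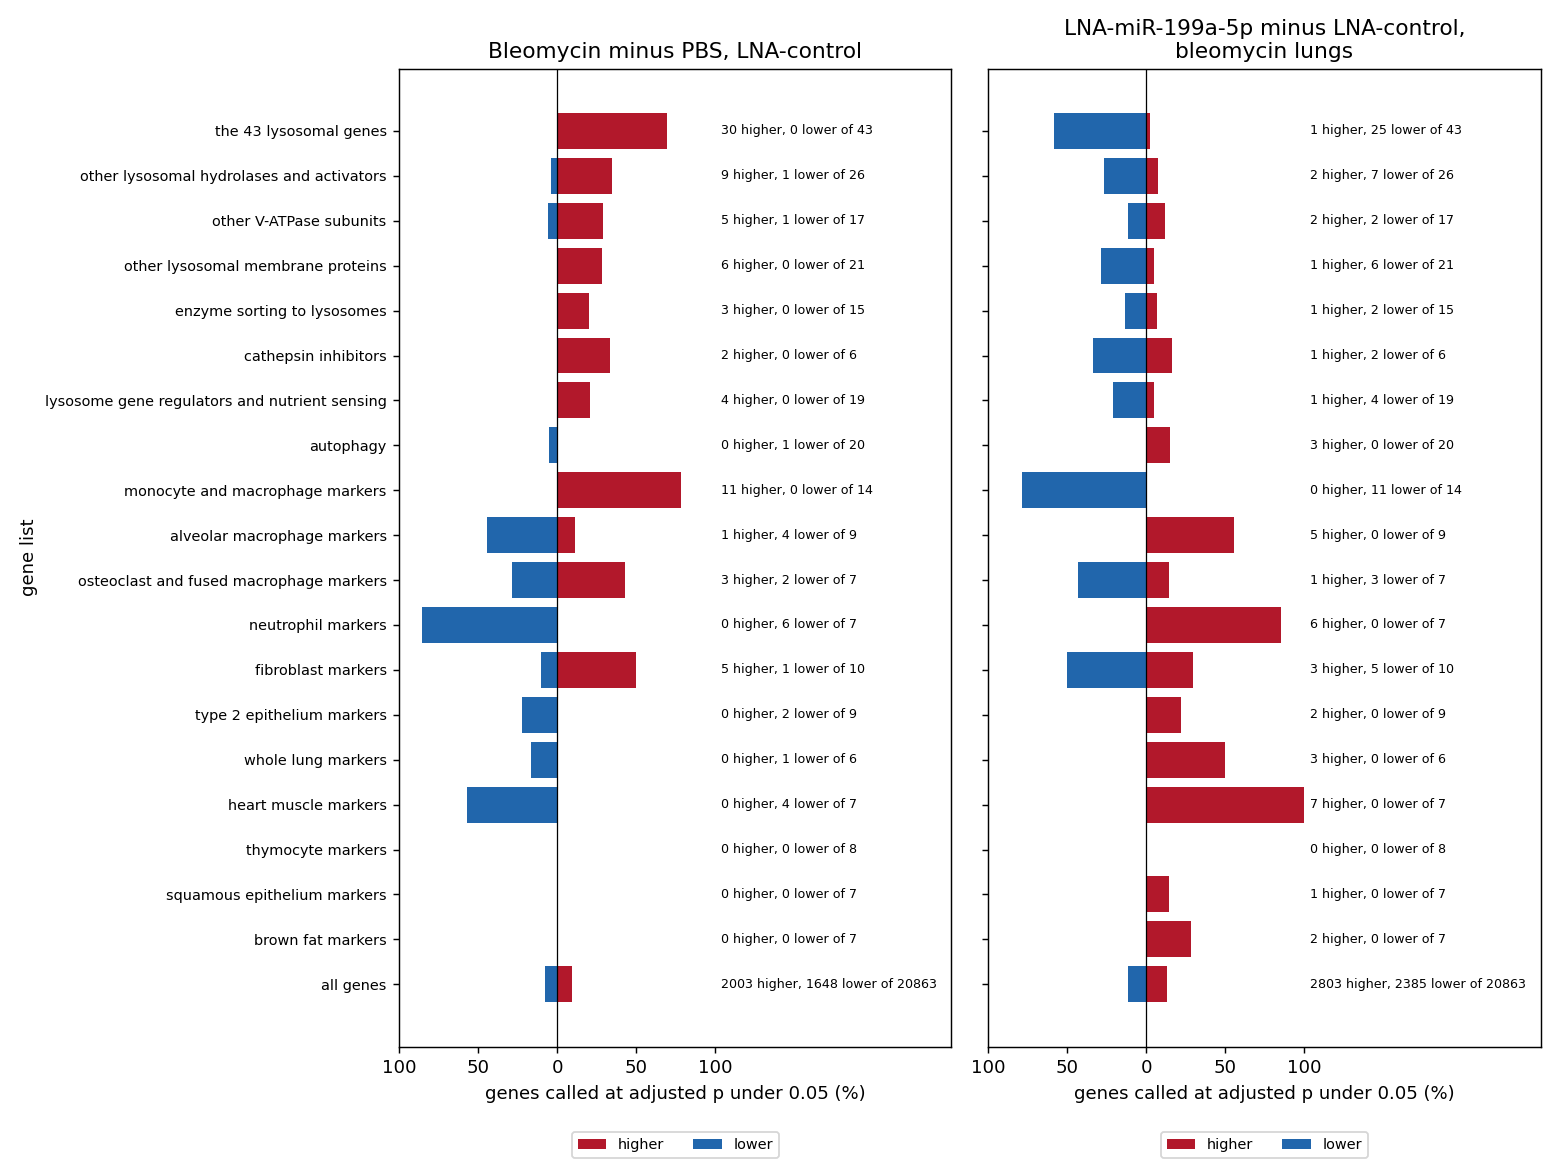
Share of each gene list (rows) called higher (red, right) or lower (blue, left) at adjusted p under 0.05, in percent of measured genes: left, bleomycin minus PBS with LNA-control; right, LNA-miR-199a-5p minus LNA-control in bleomycin lungs. The neutrophil markers (6 of 7 lower on the left, 6 higher on the right) have longer bars than the 43 lysosomal genes (30 higher on the left, 25 lower on the right). So do the 14 monocyte and macrophage markers (11 higher on the left, 11 lower on the right), which point the same way as the 43. The heart muscle bar is longer than that of the 43 only on the right (7 of 7 higher).

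Monocyte and macrophage markers moved beside the lysosomal genes. Of 14 measured monocyte and macrophage markers, none of them among the 43, 11 were higher and 0 lower after bleomycin with LNA-control, and 11 were lower and 0 higher with the inhibitor in bleomycin lungs. Their mean log2 level per array was 10.99 to 11.14 in LNA-miR-199a-5p/bleomycin, 11.64 to 12.02 in LNA-control/bleomycin, 10.65 to 10.74 in LNA-miR-199a-5p/PBS and 10.63 to 10.72 in LNA-control/PBS. The log2 of their summed intensity was 15.72 to 15.89, 16.25 to 16.51, 15.59 to 15.73 and 15.78 to 15.83 in the same 4 groups. Their part in the lysosomal changes was not tested, and in whole lung fewer cells of a type and less RNA per cell cannot be told apart.

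Other cell type lists are given by their counts, first after bleomycin with LNA-control and then with the inhibitor in bleomycin lungs. Over all genes 9.60% were higher and 7.90% lower in the first comparison, and 13.4% higher and 11.4% lower in the second. The monocyte and macrophage counts above stand against the same shares. Some counts lie near these shares. Examples are 1 of 9 alveolar macrophage markers (11.1%) higher after bleomycin, and 1 of 7 squamous markers (14.3%) higher with the inhibitor. Of 9 alveolar macrophage markers 1 was higher and 4 were lower after bleomycin, and 5 were higher with the inhibitor. Without replicates 1 and 4 of LNA-control/bleomycin the 4 were 2, and without replicate 3 of both PBS groups the 1 was 0. Of 7 osteoclast and fused macrophage markers, a group that shares its cell types with Ctsk, Acp5 and Atp6v0d2, 3 were higher and 2 lower after bleomycin, and 3 were lower and 1 higher with the inhibitor. The 2 were 1 without either pair of arrays and with RNA integrity as a covariate. Of 7 neutrophil markers 6 were lower after bleomycin and 6 were higher with the inhibitor, the opposite directions to most of the lysosomal genes.

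Of 10 fibroblast markers 5 were higher and 1 lower after bleomycin, and 5 were lower and 3 higher with the inhibitor. Without replicates 1 and 4 of LNA-control/bleomycin 3 were higher and 0 lower after bleomycin, and 3 were lower with the inhibitor; without replicate 3 of both PBS groups 0 were lower after bleomycin. Of 9 type 2 epithelium markers 2 were lower after bleomycin and 2 higher with the inhibitor. Without replicates 1 and 4 of LNA-control/bleomycin both counts were 0 in limma, without replicate 3 of both PBS groups the bleomycin count was 0, and with RNA integrity as a covariate the inhibitor count was 1. Of 6 whole lung markers 1 was lower after bleomycin and 3 were higher with the inhibitor. Of 7 heart muscle markers 4 were lower after bleomycin and 7 higher with the inhibitor. Those counts were 2 and 4 without replicates 1 and 4 of LNA-control/bleomycin, and the 4 were 2 without replicate 3 of both PBS groups. Thymocyte (8), squamous (7) and brown fat (7) markers had 0 called after bleomycin in limma, and 0, 1 and 2 were higher with the inhibitor. The numbers higher with the inhibitor were 1, 0 and 1 without replicates 1 and 4 of LNA-control/bleomycin, and 0, 5 and 4 without replicate 3 of both PBS groups. The files give no detection call, so no marker can be said to be absent on these arrays.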

How the data were processed

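Messenger RNA of whole mouse lungs was measured on 16 one-colour Agilent arrays. The deposited table holds log2 intensities, prepared by the authors with limma (no version given), per the submitters' processing notes. Once sorted, the arrays' values differed by at most 0.0974, the pattern of quantile normalization. How background was corrected, which scanner software was used and what was filtered are not given in the sources used here. Of 62976 spots, 31465 had 1 gene symbol in the platform annotation supplied with the files and 31511 had none; 29050 were matched to RefSeq by accession, which updated 2933 symbols. The probe with the highest mean was kept for the 6086 genes with several, which left 20863 genes, tested without filter or scaling. No array was a copy of another (the closest pair had a median absolute difference of 0.106), and the number of arrays limits the precision.

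The 4 group means were fitted in one model with limma 3.58.1 (lmFit and eBayes) in R 4.3.3, with 5 contrasts and two-sided tests adjusted by Benjamini-Hochberg over all genes of a contrast. The code was tested on simulated data with 200 changed genes. The 43 genes, their roles, the 7 lysosomal lists and the 11 marker lists were chosen with earlier results of these data known. By a rule written with the lists, values per array could be given for the genes of a role that rank first by p. These were up to 4 in the bleomycin effect with LNA-control and 2 in the inhibitor effect in bleomycin lungs. Some genes within these ranks are given by their changes alone, among them Glb1, Tpp1, Acp2, Lamp1 and Ppt1. Ctsa, Ctso and Man2b1 (as ranges only) were added after their values were seen. Some genes of the lists outside the 43 are not reported here. Sequences are from RefSeq tables for GRCm38.p6.

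Whether replicate numbers pair the samples was checked from the correlation of deviations of same-numbered arrays from their group means. Between the PBS groups it was 0.411, 0.108 and 0.497 for replicates 1, 2 and 3. Replicate 2 of LNA-miR-199a-5p/PBS correlated at 0.287 with a differently numbered LNA-control/PBS array. For replicates 1 and 3 of LNA-miR-199a-5p/PBS the highest correlation with a differently numbered LNA-control/PBS array was 0.0756 and -0.108. Same-numbered PBS arrays were thus the closest for replicates 1 and 3 but not for replicate 2, and the labels state no pairing. The same-number correlation ran from -0.373 to 0.0271 between the bleomycin groups. It ran from 0.043 to 0.324 between bleomycin and PBS with LNA-miR-199a-5p, and from -0.102 to -0.0073 with LNA-control. With LNA-miR-199a-5p every replicate was above the highest value for a differently numbered array. These were 0.116 against 0.0045, 0.324 against 0.0534 and 0.043 against -0.001. With LNA-control and between the bleomycin groups, a differently numbered array was closer for every replicate. Whether same-numbered arrays share a source of variation was not tested beyond the replicate block. Alternatives covered the probe choice, the filter on dim genes, centring, array weights, the replicate block, RNA integrity as a covariate, the arrays that stood apart and each replicate left out.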

Additional observations from a re-analysis of the deposited data

Results flagged for a closer look

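In 86 groups of 5 arrays (43 genes in both bleomycin groups), 4 held an array whose gap to its nearest neighbour took more than 0.71 of the range of the group, Dixon's critical value for 5 samples; chance alone gives about 1 in 20 groups. Ctss was 15.59 on replicate 3 of LNA-control/bleomycin, with the nearest of the others at 15.82. Gaa was 14.11 on the same array, with the nearest at 13.95. Npc1 was 9.43 on replicate 5 of LNA-miR-199a-5p/bleomycin, with the nearest at 9.58. Asah1 was 12.79 on replicate 1 of LNA-control/bleomycin, with the nearest at 12.51.

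The bleomycin effect differed between the oligonucleotides for 17 of the 43 genes by the interaction test of limma over all 16 arrays, given as the effect with LNA-miR-199a-5p minus that with LNA-control. Among cathepsins and the other proteases it was -1.89 for Ctsk, -1.74 for Ctsa, -1.31 for Ctss, -1.06 for Ctsd, -0.83 for Ctsh, -0.79 for Ctsb, -0.51 for Ctsl, -0.57 for Lgmn and -0.55 for Tpp1. Among glycosidases it was -0.57 for Gusb and -0.44 for Neu1. It was -0.86 for Lipa, -1.24 for Acp5, -1.18 for Cd68, -0.63 for Scarb2 and -1.08 for Atp6v0d2. The only one above 0 was Ctso at 0.56, with an adjusted p of 0.0447. Calls were lost under 1 to 6 of 27 alternatives for Scarb2, Lgmn, Gusb, Tpp1, Neu1 and Ctsl, and for Ctso under 16 of 26.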

How the results depend on the processing

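The counts of the 43 genes were recomputed under 28 alternatives (27 for the interaction). For the bleomycin effect with LNA-control the count was 30 and stayed between 27 and 33, and for the inhibitor effect in bleomycin lungs it was 26 and stayed between 20 and 31. For the bleomycin effect with LNA-miR-199a-5p it was 11, and it was 1 with only the groups of the contrast in the fit, 4 with the replicate block, 6 when RNA integrity was a covariate, 3 without replicate 3 of both PBS groups, and 3 to 12 with one replicate left out. For the inhibitor effect in PBS lungs it was 0, and 1 with array weights. For the interaction of bleomycin and inhibitor it was 17, and it was 26 with array weights, 11 without replicates 1 and 4 of LNA-control/bleomycin, 10 without replicate 3 of both PBS groups, and 13 to 18 with one replicate left out. The calls of 1, 24, 20 and 10 genes held under all alternatives for the first and second bleomycin effects (LNA-miR-199a-5p, LNA-control), the inhibitor in bleomycin lungs and the interaction. The Acp2 interaction was 0.10 and not called, and -0.52 (limma adjusted p = 0.0295) with the probe of highest variance. The replicate block gave 28 for the bleomycin effect with LNA-control, 24 for the inhibitor effect in bleomycin lungs, 0 for the inhibitor effect in PBS lungs and 16 for the interaction of bleomycin and inhibitor.

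Counts over all genes moved more. The bleomycin effect with LNA-control had 3651 genes called, 6713 with array weights, 2429 with the block, 2258 without replicates 1 and 4 of LNA-control/bleomycin, 2268 without replicate 3 of both PBS groups and 2293 without replicate 3 of LNA-control/PBS. The bleomycin effect with LNA-miR-199a-5p had 2786, with 271 for only its groups, 663 with the block, 1162 with RNA integrity, 791 without replicate 3 of both PBS groups and 1186 to 1721 without 1 of 4 single arrays. The inhibitor effect in bleomycin lungs had 5188, with 2981 for RNA integrity and 2356 without replicates 1 and 4 of LNA-control/bleomycin. The inhibitor effect in PBS lungs had 10, with 0 to 394 over the alternatives. The interaction of bleomycin and inhibitor had 1462, with 513 to 3862. The cause of these moves was not tested. Centring moved the median of all genes by -0.0488 to 0.0142. With 3 arrays in each PBS group, a change near 0.3 on the log2 scale lies close to the threshold.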
